A study of Mus musculus with 6 samples.

Results

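The cell cycle and DNA replication genes described here are 46 genes chosen by name for their known roles in cell division, of the mouse genes that could be named on a bead array of 45281 probes. Of the 46, 44 had at least 1 named probe, with 93 probes between them. Ccnb1 and Mki67 had none and were not analysed here. Bub1, Ccnb2, Cenpe and Kif20a had only probes that were not above background on any array. The other 40 genes were tested, through 72 probes. A probe counted as detected on an array where its detection p-value was under 0.05, and was tested where it was detected on at least 3 of the 6 arrays. Where a gene had several tested probes, the one with the highest mean stood for it, and other probes are named as such where they are given.

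The arrays measured RNA of monocytes and macrophages isolated magnetically from the marrow of 6 mice, with 1 array per mouse. The arrays were 6 positions of 1 chip, and each group held its own positions, so position and group cannot be told apart. Mice D, E and F had received MEC1 cells by vein, and mice A, B and C had received no treatment. MEC1 cells are an established human line of leukaemic B cells, from a patient with chronic lymphocytic leukaemia. All 6 mice were BALB/c Rag2-/-γc-/- animals, which have no T, B or NK cells and accept human grafts, were 11 weeks old and were sampled at day 21, early in the leukaemia. The controls had no injection of other cells, and MEC1 is 1 line, so the comparison is of mice with this graft against untreated mice. The arrays ask which genes of marrow monocytes and macrophages differ when leukaemic cells are present. In bulk RNA, fewer cells of a type and less RNA per cell cannot be told apart.

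Before a cell copies its DNA, Cdc6 and Cdt1 load the MCM helicase on replication origins, and E2F factors with cyclin E and Cdk2 start the copying. Ribonucleotide reductase and thymidine kinase supply nucleotides, and Pcna clamps the polymerases to DNA. In mitosis, cyclin B with Cdk1, Plk1 and the Aurora kinases drive chromosome condensation and the spindle, and the checkpoint proteins Bub1b and Mad2l1 hold back Cdc20, the activator of the anaphase-promoting complex. In bone marrow, dividing cells are mainly precursors, among them promonocytes, granulocyte precursors and erythroblasts, while mature monocytes rarely divide.

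None of the 40 tested genes passed the test between MEC1 and control mice. In limma over all 16460 tested probes, with Benjamini-Hochberg adjustment, the smallest adjusted p among them was 0.128, for Bub1b. The same fit called 158 of 9089 tested genes, or 1.74%, at an adjusted p under 0.05. At an unadjusted p under 0.05 there were 4 of the 40 genes, all higher in MEC1 mice, where 21.0% of all tested genes reached it. The groups did not overlap in 6 of the 40, against 29.0% of all tested genes. Both shares lie below those of all tested genes. The median log2 change of the 40 genes was 0.01, with 20 above 0 and 20 below, beside 0.00 over all tested genes.

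The 95% interval of the change lay within 2-fold either way for 34 of the 40 genes, against 65.0% of all tested genes. The 6 exceptions were E2f1, Ccne2, Ube2c, Ccnd1, Ccnd2 and Cdk6. For Mcm5, a helicase subunit, the interval of the log2 change was -0.30 to 0.10, the narrowest of the 40. For Ccne2, a cyclin E, it was -3.34 to 0.53.

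**Figure D1:**
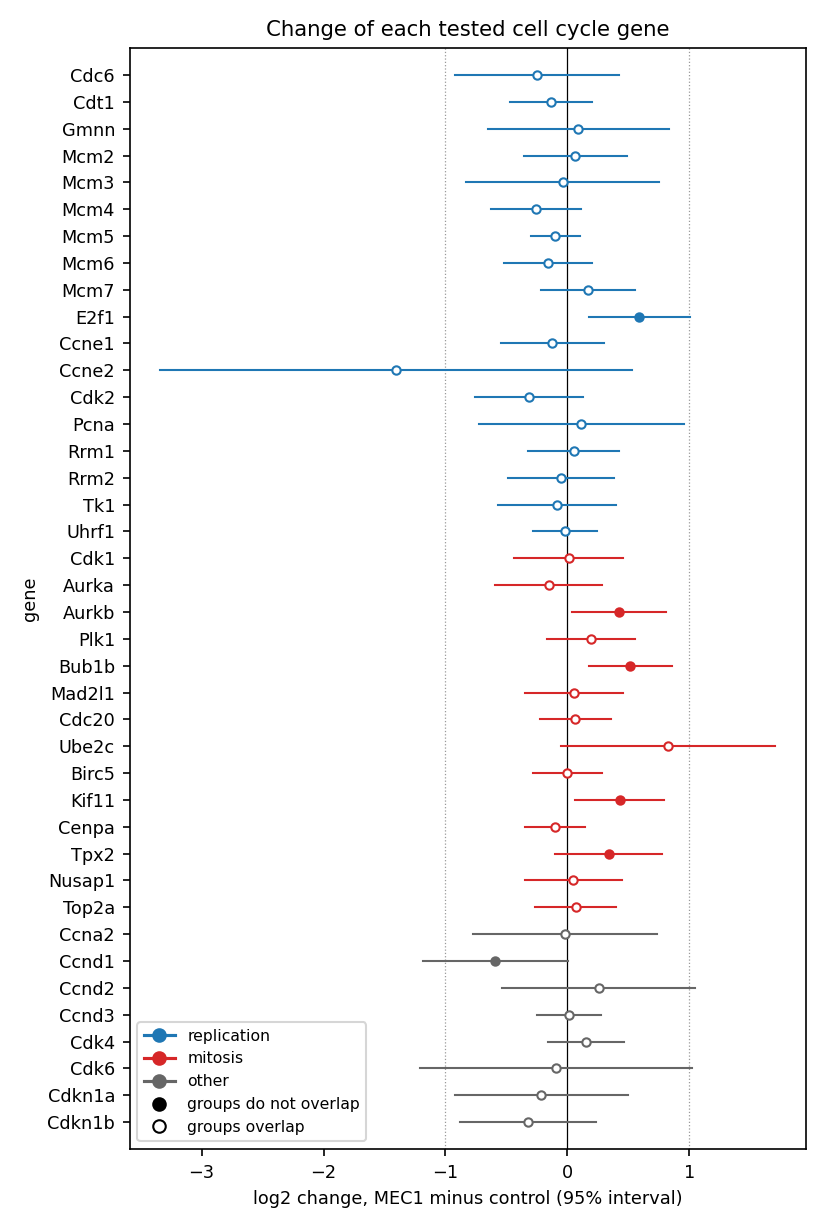
Log2 change of each of the 40 tested cell cycle genes, MEC1 minus control, as a point with its 95% interval from limma, in blue for replication, red for mitosis and grey for the other genes. Filled points mark the 6 genes whose groups do not overlap, and dotted lines mark a 2-fold change. Most intervals lie between the dotted lines, and that of Ccne2 is the widest.

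The genes were set in 2 arms by role, with 18 for replication and 20 for mitosis, of which 18 and 14 were tested. The remaining 8 genes, all tested, are G1 cyclins and their kinases, inhibitors and Ccna2, which acts in both phases. These arms also differ in their promoters. RefSeq promoter windows (GRCm38.p6, 250 bases before to 50 after the start of the gene) were at hand for 37 of the 46 genes, as 41 windows. Without a window were Aurkb, Ccna2, Ccnd1, Ccnd2, Ccne2, Gmnn, Kif20a, Mcm4 and Tpx2. Letters known for the binding of E2F factors (TTCGCGC and also TTGGCGC and also TTCCCGC and also TTGCCGC, on either strand) stood in 12 of 17 replication windows, or 70.6%, in 3 of 17 mitosis windows, or 17.6%, and in 9.57% of all 32851 windows. The cell cycle genes homology region, or CHR (TTTGAA and also TTCGAA, on either strand), is known as a site of the DREAM and MuvB complexes in promoters of mitosis genes. Its letters stood in 70.6% of mitosis windows, 11.8% of replication windows and 19.2% of all windows. CCAAT, the letters bound by NF-Y, stood in 82.4%, 70.6% and 37.4%. All 12 mitosis windows with CHR letters also held CCAAT.

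Windows of 3 mitosis genes and 2 helicase subunits, chosen after their matches were seen, show the contrast. They run 5′ to 3′ along the gene, and capitals mark the E2F, CHR and CCAAT letters on either strand.
Cdc20, chr4:118437294-118437593, minus strand: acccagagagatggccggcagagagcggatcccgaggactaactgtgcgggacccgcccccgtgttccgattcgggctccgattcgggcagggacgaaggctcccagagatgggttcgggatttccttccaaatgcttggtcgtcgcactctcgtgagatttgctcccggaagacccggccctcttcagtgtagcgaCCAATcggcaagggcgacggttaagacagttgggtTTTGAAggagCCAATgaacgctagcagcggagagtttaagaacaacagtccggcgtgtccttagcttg
Bub1b, chr2:118597961-118598260, plus strand: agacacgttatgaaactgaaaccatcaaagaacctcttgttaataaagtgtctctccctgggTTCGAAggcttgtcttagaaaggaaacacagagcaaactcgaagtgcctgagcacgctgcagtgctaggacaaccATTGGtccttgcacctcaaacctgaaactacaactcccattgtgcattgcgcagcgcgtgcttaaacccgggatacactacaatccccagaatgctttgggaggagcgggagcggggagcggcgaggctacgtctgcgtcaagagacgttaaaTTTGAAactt
Kif11, chr19:37376132-37376431, plus strand: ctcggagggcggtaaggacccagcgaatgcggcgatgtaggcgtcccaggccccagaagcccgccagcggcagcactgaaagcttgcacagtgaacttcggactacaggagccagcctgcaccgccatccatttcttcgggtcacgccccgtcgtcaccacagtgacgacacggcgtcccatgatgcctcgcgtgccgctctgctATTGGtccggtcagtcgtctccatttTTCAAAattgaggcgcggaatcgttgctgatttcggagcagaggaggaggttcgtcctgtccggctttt
Mcm5, chr8:75109259-75109558, plus strand: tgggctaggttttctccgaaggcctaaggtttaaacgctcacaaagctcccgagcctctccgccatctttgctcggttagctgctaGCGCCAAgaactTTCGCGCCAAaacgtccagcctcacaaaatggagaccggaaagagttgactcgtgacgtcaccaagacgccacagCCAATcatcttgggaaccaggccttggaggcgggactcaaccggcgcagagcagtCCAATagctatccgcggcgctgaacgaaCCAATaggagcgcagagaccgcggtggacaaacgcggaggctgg
Mcm6, chr1:128359656-128359955, minus strand: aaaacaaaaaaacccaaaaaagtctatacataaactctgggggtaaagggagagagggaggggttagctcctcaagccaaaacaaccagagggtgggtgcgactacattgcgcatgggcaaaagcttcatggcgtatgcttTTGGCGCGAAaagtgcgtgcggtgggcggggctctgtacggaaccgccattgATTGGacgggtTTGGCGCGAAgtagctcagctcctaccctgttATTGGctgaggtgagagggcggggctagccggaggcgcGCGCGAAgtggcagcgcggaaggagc
Cdc20 holds 1 CHR match that begins 18 bases before the start, between CCAAT matches at 53 and 8 bases before it. Kif11 has the same pair at 19 and 45 bases before the start, both on the opposite strand. Bub1b has 2 CHR matches and 1 CCAAT match. None of these 3 windows holds E2F letters. Mcm5 holds 3 and Mcm6 holds 5 E2F matches, some of them overlapping on opposite strands, and neither has CHR letters. E2F letters can also overlap CCAAT where GCGCCAA runs on into T. The replication windows had a median GC content of 61.3% and the mitosis windows of 58.0%, against 52.7% for all windows, and the E2F letters are rich in G and C. A match says that the letters are there, and no binding was measured.

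**Figure D2:**
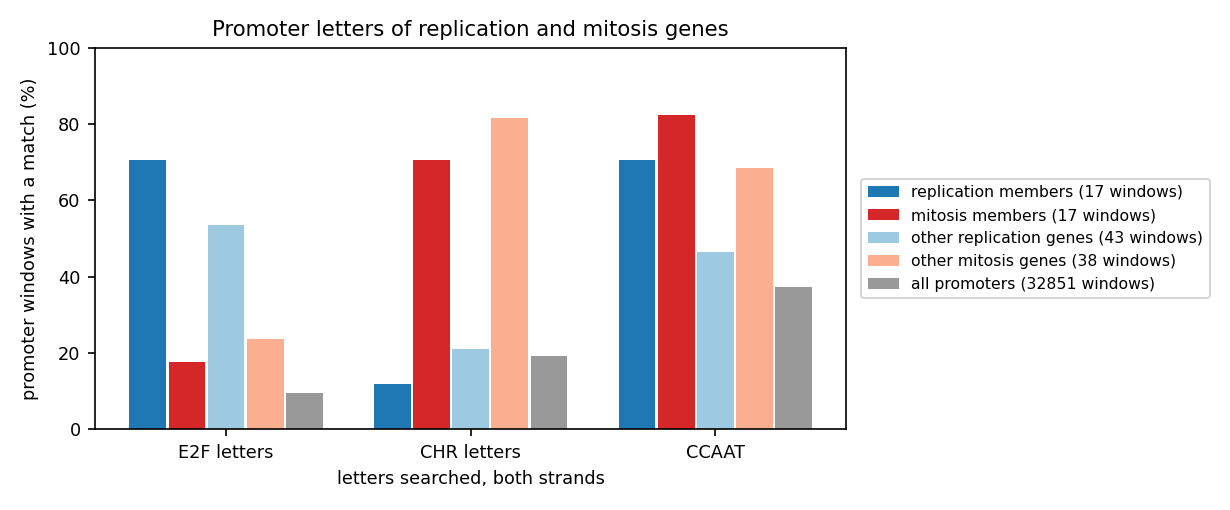
Share of 300-base promoter windows that hold E2F, CHR or CCAAT letters on either strand, for replication and mitosis genes among the 46, for other genes of both processes, and for all windows. E2F letters stand in 70.6% of the replication windows and CHR letters in 70.6% of the mitosis windows.

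The licensing and helicase genes gave changes near 0. Of the 9 tested, none passed and the groups overlapped in each one, with log2 changes of -0.26 to 0.17. Mcm5, at a log2 intensity of 13.75, 13.60 and 13.74 in MEC1 mice (D, E, F in that order) and 13.75, 13.79 and 13.84 in control mice (A, B, C in that order), gave a change of -0.10 ± 0.09 (SE; adjusted p = 0.553 by limma). Mouse E had the lowest value, and D and F lay near mouse A. Mcm4, another helicase subunit, had 13.49, 13.05 and 13.63 in MEC1 mice and 13.45, 13.66 and 13.84 in control mice, a change of -0.26 ± 0.16 (SE; adjusted p = 0.396). Mcm2, Mcm3, Mcm6 and Mcm7 gave 0.06, -0.04, -0.16 and 0.17. Cdt1, a loader of the helicase, had 12.52, 12.06 and 12.52 in MEC1 mice and 12.40, 12.57 and 12.53 in control mice, so that only mouse E stood below the control range. Cdc6, its partner, had 10.51, 9.74 and 10.96 against 10.37, 10.79 and 10.81, again with mouse E lowest. At their other probes Cdc6 gave -0.68 ± 0.42, Mcm7 -0.60 ± 0.42, and Mcm4 -0.58 ± 0.56 and -0.65 ± 0.64 (SE), and the groups overlapped at each. Gmnn, which encodes the Cdt1 inhibitor geminin, was dim, detected on 2 MEC1 arrays and 1 control array, and gave 0.09 ± 0.33 (SE).

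Among the S-phase entry genes, E2f1, the transcription factor that activates replication genes, was the one replication gene whose groups did not overlap. It had 11.41, 12.07 and 11.84 in MEC1 mice and 11.06, 11.21 and 11.28 in control mice. The change was 0.59 ± 0.18 (SE; adjusted p = 0.140). Mouse D lay just above the highest control mouse, and E and F further up. Without mouse D the change was 0.77 and passed (adjusted p = 0.0152), in a fit that called 7.62% of all tested genes. E2f1 was the only one of the 40 that passed there. Ccne1, a cyclin E, gave -0.13 and Cdk2, its kinase, -0.31 ± 0.20 (SE). Ccne2 had 5.78, 8.03 and 8.93 in MEC1 mice and 8.53, 8.87 and 9.56 in control mice, with mouse D not above background.

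The genes of DNA synthesis also gave changes near 0. Rrm1 and Rrm2, the subunits of ribonucleotide reductase, gave 0.05 ± 0.17 and -0.05 ± 0.19 (SE). The other probe of Rrm1 gave 0.26, and those of Rrm2 -0.14 and 0.38. Tk1, thymidine kinase, gave -0.08 ± 0.21 (SE) and 0.18 at its other probe, and Uhrf1, which maintains DNA methylation at replication forks, gave -0.02 ± 0.12 (SE). Pcna, with 7.51, 8.52 and 8.74 in MEC1 mice and 7.73, 8.0 and 8.70 in control mice, varied more within each group than between them. Of all 18 replication genes 6 had a change above 0 and 12 below, and none was lower in MEC1 mice without overlap, against 14.0% of all tested genes.

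Of the 14 tested mitosis genes 11 had a change above 0, where 49.5% of all tested genes had. Their median was 0.07, beside -0.07 for the replication genes. Of those above 0, Cdk1, Nusap1, Mad2l1, Cdc20 and Top2a gave only 0.01 to 0.07. The groups did not overlap, with MEC1 mice higher, in 4 of the 14 (Aurkb, Bub1b, Kif11 and Tpx2), against 15.0% of all tested genes. None of the 14 passed the test. The arrays were instead also scaled to equal medians over all 45281 probes, of which 34.3% to 37.5% were detected on an array. The median change of the tested probes was then -0.48, though some probes rose. With that scaling 0 of the 14 were higher without overlap, where only 2.65% of all tested genes were. Of the 14 changes only those of Bub1b (0.01) and Ube2c (0.42) were then above 0. The changes of Aurkb, Kif11 and Tpx2 were then below 0 but above the median change of -0.48, as given beside the scaling values further on.

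Bub1b, a kinase-related protein of the spindle checkpoint, had 11.06, 11.07 and 11.05 in MEC1 mice and 10.40, 10.75 and 10.47 in control mice. The 3 MEC1 mice lay close together and above all controls. The change was 0.52 ± 0.15 (SE; adjusted p = 0.128). Its second probe also separated the groups, at 10.16, 9.85 and 9.86 against 9.56, 9.46 and 9.56, a change of 0.43 ± 0.17 (SE; adjusted p = 0.213).

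Kif11, the motor that pushes spindle poles apart, had 10.61, 10.42 and 10.32 in MEC1 mice and 10.13, 9.88 and 10.05 in control mice (0.43 ± 0.16, SE; adjusted p = 0.195). Aurkb, the kinase of the chromosomal passenger complex, had 11.94, 11.36 and 11.48 in MEC1 mice and 11.17, 11.11 and 11.23 in control mice (0.42 ± 0.17, SE; adjusted p = 0.221). Mouse D was highest in both. Tpx2, a spindle assembly factor, had 9.28, 9.21 and 9.29 against 8.80, 9.20 and 8.76, where mouse B lay just below the MEC1 mice (0.34 ± 0.19, SE; adjusted p = 0.359).

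Cdc20, which activates the anaphase-promoting complex, depended on the probe. Its 4 tested probes gave log2 changes of 0.07, 0.51, 0.73 and -0.86. The brightest, which stood for the gene, had 12.14, 11.91 and 12.23 in MEC1 mice and 11.98, 12.10 and 12.00 in control mice, and the groups overlapped. The probe with the change of 0.73 had 11.23, 11.59 and 11.20 against 10.35, 10.61 and 10.88, with no overlap (SE 0.18; adjusted p = 0.0964). That is the smallest adjusted p of the 72 tested probes, none of which passed, where 1.54% of all tested probes did. The probe with 0.51 did not overlap either (adjusted p = 0.144). In the last probe mouse D lay at 6.45, and the other 5 mice between 9.80 and 10.46. The mean over the 4 probes gave a change of 0.11 (adjusted p = 0.832).

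Mad2l1, which works beside Bub1b in the checkpoint, gave 0.05 ± 0.18 (SE). The other mitotic kinases overlapped between groups. Cdk1, at 10.60, 11.22 and 11.27 in MEC1 mice and 10.93, 10.99 and 11.14 in control mice, gave 0.01 ± 0.20 (SE). Mouse D was the lowest of the 6 and E and F were the highest. Plk1 gave 0.20 ± 0.16 and Aurka -0.15 ± 0.19 (SE). Ube2c, the ubiquitin-conjugating enzyme of the anaphase-promoting complex, gave the largest positive estimate, 0.82 ± 0.39 (SE; adjusted p = 0.275), with 7.43, 6.06 and 7.0 against 5.55, 6.13 and 6.35. It was detected on 3 MEC1 arrays and 2 control arrays, so part of that change is measured against background.

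Among chromosome and spindle genes, Birc5, which encodes survivin, and Cenpa, the centromeric histone, gave 0.00 ± 0.12 and -0.10 ± 0.11 (SE). Top2a, topoisomerase II alpha, showed opposite directions by probe. Its brightest probe gave 0.07 ± 0.15 (SE), with 11.63, 12.05 and 11.97 in MEC1 mice and 11.90, 11.76 and 11.79 in control mice. A second probe, annotated to a cDNA clone, had 8.71, 8.28 and 8.98 against 9.81, 9.20 and 9.39, lower in MEC1 mice without overlap (-0.81 ± 0.25, SE; adjusted p = 0.140). Nusap1, a spindle-binding protein, was alike, with 0.05 at its brightest probe and -0.56 at a dimmer one whose groups did not overlap (adjusted p = 0.270).

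**Figure D3:**
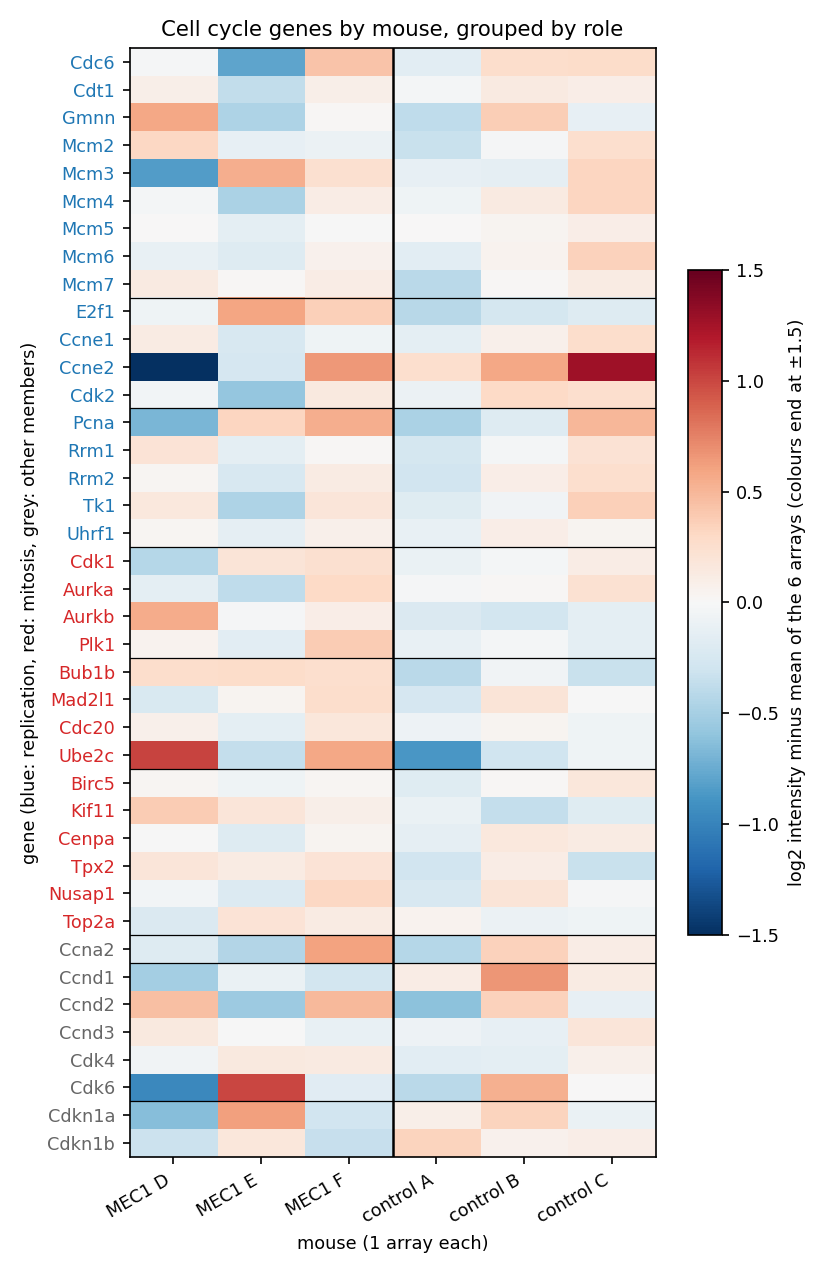
Log2 intensity of each of the 40 tested genes in each mouse, as the difference from the mean of the 6 arrays, with MEC1 mice on the left and lines between roles. Bub1b, Kif11, Aurkb and E2f1 are higher in the 3 MEC1 mice than in each control mouse, and Ccne2 is lowest in mouse D.

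The G1 cyclins and inhibitors did not move together. Ccnd1, a cyclin D, had 6.96, 7.37 and 7.20 in MEC1 mice and 7.58, 8.13 and 7.59 in control mice, a change of -0.59 ± 0.26 (SE; adjusted p = 0.255). The groups did not overlap at that probe, and overlapped at its second probe (-0.43). Ccnd2 and Ccnd3 gave 0.26 ± 0.35 and 0.02 ± 0.12 (SE), with -0.25 and 0.40 at other probes of Ccnd2, and the kinases Cdk4 and Cdk6 gave 0.15 ± 0.14 and -0.10 ± 0.49 (SE). At a second Cdk4 probe MEC1 mice had 9.34, 9.13 and 9.15 and control mice 8.39, 9.02 and 8.53, with no overlap (0.56 ± 0.22, SE; adjusted p = 0.210). Cdk6 was detected on 1 MEC1 array and 2 control arrays, and so was Ccna2, which gave -0.02. Cdkn1a, the p21 inhibitor that p53 induces, had 11.22, 12.48 and 11.57 in MEC1 mice and 11.95, 12.19 and 11.76 in control mice. The change was -0.21 ± 0.30 (SE), and its other probes gave 0.14 and -0.04. At the brightest probe the MEC1 values spread on both sides of the control range, and mouse E had the highest level of the 6. Cdkn1b, the p27 inhibitor, gave -0.32 ± 0.25 (SE).

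To set replication beside mitosis in each mouse, the median deviation of each arm from the mean of the 6 arrays was taken. For replication it was 0.02, -0.21 and 0.11 in MEC1 mice (D, E, F in that order) and -0.16, 0.07 and 0.26 in control mice (A, B, C in that order). For mitosis it was 0.05, -0.05 and 0.22 in MEC1 mice and -0.16, -0.01 and -0.06 in control mice. Either arm alone overlapped between the groups. Mitosis minus replication was 0.03, 0.17 and 0.11 in MEC1 mice and 0.00, -0.08 and -0.32 in control mice. The difference between groups was 0.24, and no p is given, since the genes were chosen with earlier results of these data known. Mouse A lay just below mouse D, so the separation was narrow at that end. Without control mouse C the difference was 0.11, and without any 1 of the other 5 mice it was 0.18 to 0.27.

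The whole scale of the arrays bears on these directions. With median scaling all tested probes shifted by a median of -0.48, the mitosis genes by -0.32 and the replication genes by -0.52. The mitosis genes then lay 0.16 above the shift of all probes and the replication genes 0.04 below it. The gap between these 2 median changes was 0.20 with median scaling and 0.13 with quantile normalization. It was 0.34 without mouse D, 0.23 without A, 0.26 without B and 0.06 without C. The other measure, the mean over mice of mitosis minus replication, gave 0.24 between groups under both scalings, so the size of the gap depends on the measure. Under that scaling Bub1b gave 0.01, E2f1 0.13, Aurkb -0.06, Kif11 -0.10, Tpx2 -0.20 and Cdc20 -0.37. Ccnd1 was the only gene of the 40 to pass there, at -1.18 (adjusted p = 0.0308), in a fit that called 11.6% of all tested genes.

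**Figure D4:**
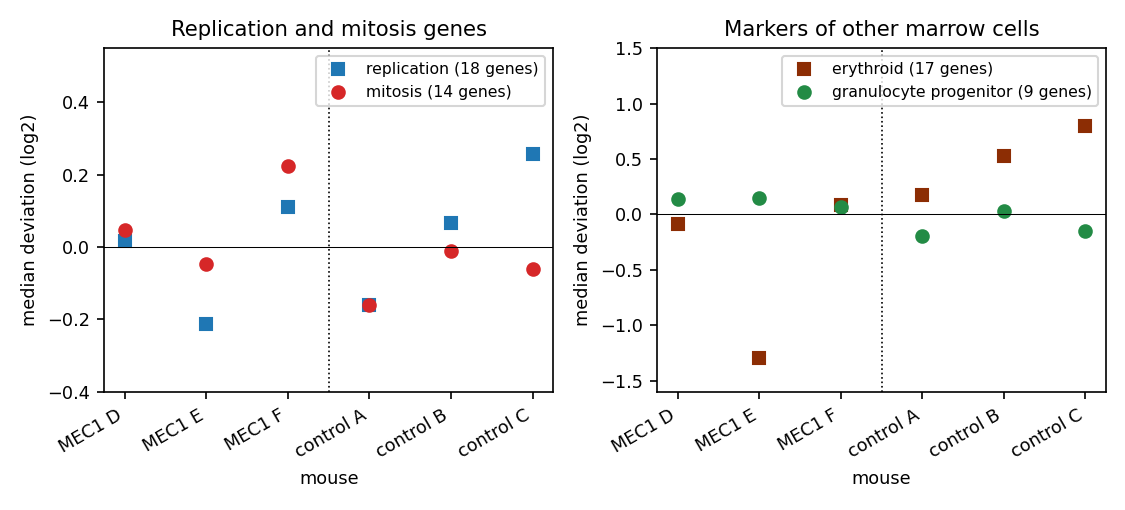
Left, median deviation in log2 of the 18 replication genes (squares) and 14 mitosis genes (circles) in each mouse, with MEC1 mice to the left of the dotted line. Right, the same for 17 erythroid and 9 granulocyte progenitor marker genes. Mitosis lies above replication in the 3 MEC1 mice, and the erythroid markers are lowest in mouse E.

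Markers of other dividing marrow cells differed among the same mice. The median deviation of 17 tested erythroid markers was -0.09, -1.30 and 0.09 in MEC1 mice (D, E, F in that order) and 0.18, 0.53 and 0.79 in control mice (A, B, C in that order). All 17 had a change below 0 and none passed, with 10 lower at an unadjusted p under 0.05 (background 10.4% of all tested genes). The smallest adjusted p was 0.0544 by limma, for Hbb-bs (-0.55), and Hbb-bt and Car1 gave -0.43 and -1.45. The log2 summed level of the 17 was 16.39 to 17.11 in MEC1 mice and 17.34 to 17.66 in control mice. That sum mainly follows its brightest genes, the globin genes Hba-a1, Hbb-bs and Hbb-bt. Hba-a1 lay at 15.47 in each control mouse (SD 0). Epb42 and Rhd of that list were not above background on any array. Mouse E, lowest in the erythroid markers, also had the lowest replication median, and mouse C was highest in both. The mice between them did not keep 1 order. Mouse A lay above D and F in the erythroid markers and below both in the replication median. Of 9 granulocyte progenitor markers 1 passed, where 1.74% of all tested genes did. It was the proteinase 3 gene Prtn3 (0.39 ± 0.08, SE; adjusted p = 0.0483), and of the 9 changes 7 lay above 0 and 2 below. Myb, a transcription factor of progenitors and named after its values were seen, was not above background on any MEC1 array and was detected on 3 control arrays. It met the detection filter only through the control mice. That filter favours a lower value in MEC1 mice, so its change (-0.43; adjusted p = 0.304) is not read as a fall. The list had a log2 summed level of 16.58 to 16.69 in MEC1 mice and 16.45 to 16.57 in control mice. Of 10 tested monocyte and macrophage markers Fcgr1 rose by 1.77, Mrc1 fell by 1.71 and Lyz2 fell by 0.45 on the log2 scale (adjusted p = 0.017, 0.0207 and 0.0491 by limma). The log2 summed level of the 10 was 15.73 to 15.80 in MEC1 mice and 16.01 to 16.08 in control mice. That sum mainly follows its brightest genes, Lyz2 (mean 14.79 in MEC1 and 15.24 in control mice) and Ly6c1 (14.20 and 14.26). It is not a measure of the list as a whole. Of the 10 changes 2 lay above 0 and 8 below, with a median of -0.36, and 1.74% of all tested genes passed. MEC1 mice were lower without overlap in 4 and higher in 1, against 14.0% and 15.0% of all tested genes. Csf1r, Cd14 and Adgre1 were detected on all 6 arrays and gave 0.25, -0.27 and -0.69, and none of them passed. The part of cell composition in the values of the cycle genes was not tested.

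Other genes of the same processes, taken from lists by role, were set beside them. Of 40 other replication genes tested none passed (smallest adjusted p = 0.0666, for Pold2, a subunit of DNA polymerase delta), 4 were higher and none lower at an unadjusted p under 0.05 (10.6% and 10.4% of all tested genes), and the median change was -0.02. Pold2 had 10.57, 10.88 and 10.49 in MEC1 mice and 9.82, 9.90 and 9.96 in control mice, 0.75 ± 0.16 (SE) and well apart. Cdc45, a part of the replicative helicase, gave 0.58 and Chaf1a, a chromatin assembly factor, 0.59 (adjusted p = 0.138 and 0.200). In 5 of the 40 genes MEC1 mice were higher without overlap and in 1 lower, against 15.0% and 14.0% of all tested genes. The higher counts are near those of all genes, and the lower counts are below them.

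Of 35 other mitosis genes tested 1 rose, none fell and 34 did not pass, where 1.74% of all tested genes passed. The median change of the 35 was 0.16. Dlgap5, a microtubule-binding protein of the spindle, had 8.39, 9.39 and 9.12 in MEC1 mice and 7.41, 7.57 and 7.54 in control mice. Its change was 1.46 ± 0.28 (SE; adjusted p = 0.0448), and every MEC1 mouse lay above every control. That probe is annotated to a cDNA clone, and the mean over the tested probes of the gene gave 0.63 (adjusted p = 0.1395 in limma). The call was lost without any 1 of the mice other than D. In 13 of the 35 genes MEC1 mice were higher without overlap, and in 3 they were lower, against 15.0% and 14.0% of all tested genes. With median scaling there was 1 of the 35, against 2.65% of all tested genes. Cdc25c, the phosphatase that activates Cdk1, gave 0.70 ± 0.20 and Foxm1, a transcription factor of mitosis genes, 0.55 ± 0.18 (SE; adjusted p = 0.120 and 0.148). Smc2, a condensin subunit named after its values were seen, gave -0.79 ± 0.27 (SE; adjusted p = 0.169), lower in MEC1 mice without overlap.

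Of 27 other regulators tested Cdkn2d rose and Btg1 fell, and 25 did not pass, where 1.74% of all tested genes passed. The groups did not overlap in 12 of the 27, with MEC1 mice higher in 4 and lower in 8, against 15.0% and 14.0% of all tested genes. Skp2 and Cdkn1c, both lower, were detected on control arrays only and met the detection filter only through the control mice. That filter favours a lower value in MEC1 mice, so neither is read as a fall. The count of 8 includes both, so part of it follows from the filter. Cdkn2d, which encodes the Cdk4 inhibitor p19, had 10.47, 10.54 and 10.10 in MEC1 mice and 9.37, 9.50 and 9.47 in control mice, 0.92 ± 0.18 (SE; adjusted p = 0.0444). Btg1, an antiproliferative factor, had 13.19, 13.40 and 13.22 against 13.89, 13.92 and 14.01, -0.67 ± 0.10 (SE; adjusted p = 0.0184). The groups stood apart in both. Without any 1 control mouse neither passed, and without mouse E only Btg1 did. Gadd45b, a stress-induced growth arrest gene, gave 1.03 ± 0.23 (SE; adjusted p = 0.0756).

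The arrays themselves were unequal. Correlations over tested probes were 0.983 to 0.991 between control mice and 0.923 to 0.967 between MEC1 mice, with 15545 to 16976 probes detected on an array. In mouse D 4.82% of all tested probes lay at least 1 log2 unit below the lowest of the other 5 arrays, against 1.53% in mouse E and 0.134% or less in the other 4 mice. Of the 72 cycle gene probes 8 were so in mouse D and 1 in mouse E. The 8 belonged to Ccnd3, Ccne2, Cdc20, Cdk2, Mcm4 (2 probes), Mcm6 and Mcm7, and, except for Ccne2, which has 1 probe, each of these genes had another probe that did not drop. Ccnd3, a cyclin D, had 6.30 in mouse D at its second probe, against 10.52 to 10.97 in the other 5 mice, while its brightest probe was 13.73 in mouse D and 13.46 to 13.77 in the others. Mcm7, a helicase subunit, had 9.04 at 1 probe and 10.97 at the other in mouse D. Without mouse D the median change was 0.20 for mitosis and -0.14 for replication genes, 6 of 14 mitosis genes and 1 of 18 replication genes were higher without overlap, and 20.4% of all tested genes were.

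**Figure D5:**
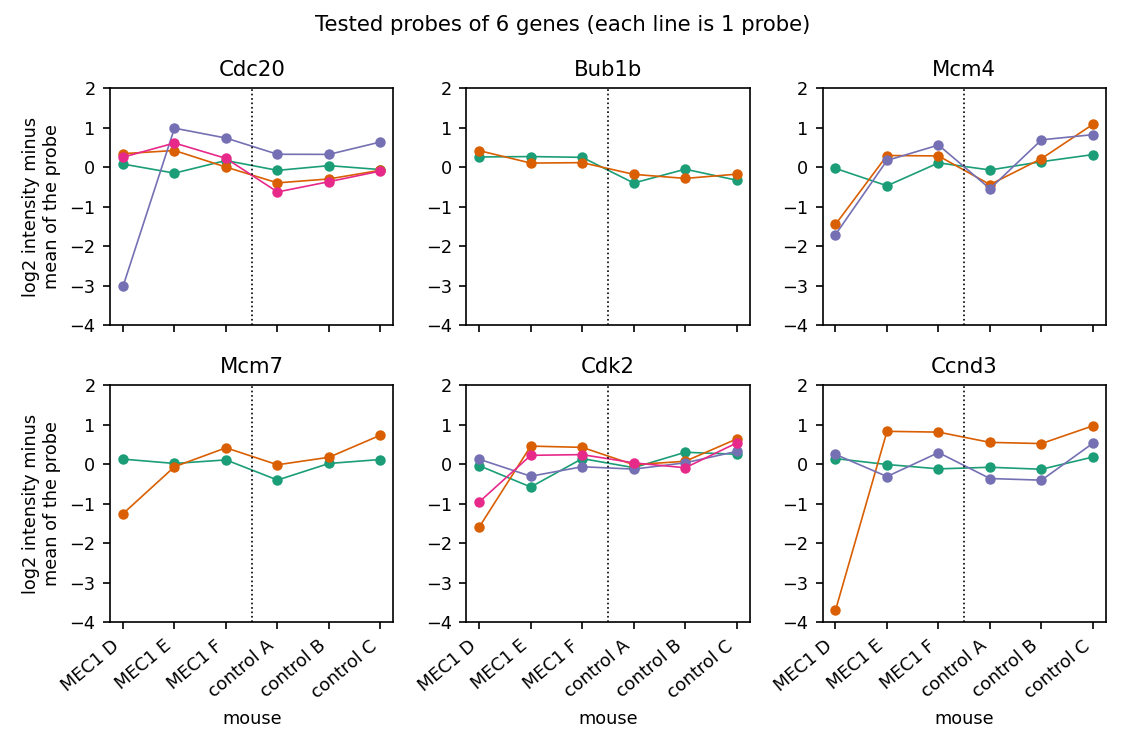
Log2 intensity of every tested probe of 6 genes in each mouse, as the difference from the probe's own mean, with MEC1 mice to the left of the dotted line. Single probes of Cdc20, Mcm7, Ccnd3 and Cdk2 and 2 probes of Mcm4 lie at least 1 log2 unit below the other mice in mouse D while another probe of the gene does not, and both probes of Bub1b are higher in the MEC1 mice.

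Within the arms the genes varied together only in part. Over the 6 arrays the 153 pairs of replication genes had a median Pearson r of 0.52 (lowest -0.79, highest 0.97), and the 91 pairs of mitosis genes one of 0.32 (lowest -0.60, highest 0.93). The 252 pairs across the arms had a median of 0.24. The pairs share the same 6 mice, and the values are given as a description. The median SD within a group was 0.28 in MEC1 mice and 0.25 in control mice for replication genes, 0.24 and 0.15 for mitosis genes, and 0.30 and 0.17 for all tested genes.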

How the data were processed

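The deposited non-normalized table gives, per the file headers, the mean intensity of each of 45281 probes on 6 single-colour arrays. It also gives a deposited detection p-value per array. A table of normalized intensity values was deposited too. The submitters' processing notes name GenomeStudio, whose version and settings are not given in the sources used here. Those normalized values had medians of 100.7 to 100.8 and lay within 1.69 of the mean of the sorted raw signals, as quantile normalization gives, and served as an alternative.

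The raw values went through neqc (normexp background, offset 16, quantile, log2) in limma 3.58.1 under R 4.3.3. The offset shrinks changes of dim probes. Group effects were fitted with lmFit and eBayes (trend, robust) on 16460 probes detected at p under 0.05 on at least 3 arrays. Its two-sided p-values were adjusted by Benjamini-Hochberg over all of them, and under 0.05 is a call. SE and 95% intervals are the moderated ones, MEC1 minus control, n = 3 each. The steps were tested on simulated arrays. Precision is limited by the number of arrays.

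Probes were named from the platform annotation, with symbols updated by Entrez ID (34807 of 34885). Probes with several genes were not named. Genes named by rule are all members, up to 3 other list genes with the smallest p and any called, and the 5 genes most like the mitosis median. Further list genes are named as common markers, for their detection, for their weight in a sum, as called only under an alternative, or after their values were seen. Skp2 and Cdkn1c are of the last kind. The members and lists were chosen with earlier results of these data known. Mice have separate letters and were not paired. Alternatives were scaling, background, offset, probe filter, variance model, probe averaging, the authors' values and leaving out each mouse.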

Additional observations from a re-analysis of the deposited data

How the results depend on the processing

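The count of called probes, 253 in all (143 higher, 110 lower), was 2111 with median scaling (130 higher, 1981 lower), 95 without trend and robust variance, and 5 to 1218 without 1 mouse. It was 5, 9 and 9 without control mice A, B and C, 1218 without mouse D, 67 without E and 127 without F. Of all tested genes 11.6% were called with median scaling, mostly lower, and 0.0330% to 7.62% without 1 mouse. The count of cell cycle genes called was 1 with median scaling and 0 to 1 without 1 mouse (E2f1 without mouse D). Mitosis genes higher without overlap numbered 0 with median scaling and 4 to 7 without 1 mouse, with 7 without mouse E. The same count for other mitosis genes was 1 with median scaling and 13 to 16 without 1 mouse. Among all tested genes 2.65% were higher without overlap with median scaling, and 18.4% to 24.2% without 1 mouse (20.9% without mouse E). The difference of mitosis minus replication was 0.11 to 0.27 without 1 mouse. Other mitosis genes called were 3 with median scaling (Pttg1, Smc2 and Smc4, all lower in MEC1 mice, at -1.03, -1.35 and -1.29, with Dlgap5 at 0.88 no longer called), 0 without background correction, with the authors' values, without trend and robust variance and with the mean over probes, and 0 to 1 without 1 mouse. Other regulators called were 5 with median scaling (Btg1, E2f5, E2f8, Rb1 and Tfdp2, all lower in MEC1 mice, with Cdkn2d no longer called), 1 without the detection filter (Btg1), 0 without trend and robust variance, and 0 to 4 without 1 mouse. Other replication genes called were 1 with the mean over probes (Pold2) and 0 to 2 without 1 mouse. Where these differ from the main values the cause was not tested. Of 555 values of the 40 genes under the alternatives, 553 stayed on the same side of the threshold and 2 came to pass. In 67 of them, over 28 genes, the sign of a change that did not pass turned, for genes with a main change of at most 0.43 in size. No paired analysis was possible because the mice of the groups share no replicate label.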

Other observations

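The genes outside the list whose profile over the 6 arrays was most like the median of the mitosis genes were Lcn8, Rpp30, Trmt61a, Gm9902 and Knop1, with Pearson's r of 0.99, 0.98, 0.97, 0.97 and 0.97 over 6 arrays. None passed the test (adjusted p of 0.337 to 0.595 in limma). Trmt61a, a subunit of a tRNA methyltransferase, had 9.46, 9.45 and 10.03 in MEC1 mice and 9.13, 9.39 and 9.28 in control mice.

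Markers of further marrow cells showed no calls. Of 9 tested neutrophil markers none passed and the median change was 0.05, with 5 above 0 and 4 below. The groups did not overlap in 3, all higher in MEC1 mice, where 15.0% of all tested genes were. These were Lcn2, lipocalin 2, at 0.70 ± 0.18 (SE; adjusted p = 0.104), S100a8 at 0.27 and S100a9 at 0.30. Ltf, Ngp, Chil3 and Camp gave -0.24, -0.23, -0.16 and -0.02, and are named after their values were seen. Of 4 tested eosinophil markers none passed, with 3 changes above 0 and 1 below. Epx, eosinophil peroxidase, gave 0.86 ± 0.25 (SE; adjusted p = 0.124 by limma), and Prg3, Prg2 and Ear6 gave 0.54, 0.12 and -0.04. Siglecf, Ccr3 and Il5ra of that list were not above background on any array. None of 5 stem and progenitor, 5 megakaryocyte and 3 lymphoid markers passed (smallest adjusted p = 0.297, 0.257 and 0.620). At an unadjusted p under 0.05 there were 3 neutrophil and 2 eosinophil markers, all higher, and none in the other 3 lists, beside 10.6% of all tested genes higher and 10.4% lower. Ms4a1, Cd3e, Cd8a, Ncr1 and Igll1 of the lymphoid list were not above background on any array. The 3 tested lymphoid markers were detected, Cd3d and Cd79b on all 6 arrays and Klrb1c on 3. They gave 0.27, -0.02 and -0.26.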
